A study of Mus musculus with 27 samples.

Results

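The 10 genes described here encode proteins that the liver secretes into plasma: the carriers Alb, Afm, Gc, Ahsg, Ttr, Rbp4, Trf and Serpina6, and the hormone or cytokine precursors Agt and Rarres2. They were listed with earlier results of these data known, and every probe set that the array annotation maps to one of them was taken. Of the 10 genes, 8 had a probe set on the array (9 probe sets among 12488, with 2 for Serpina6) and all 9 passed the brightness filter. No probe set was annotated to Gc, the vitamin D carrier, or to Trf, the iron carrier transferrin, so these genes have no value here. Afm and Rarres2 were chosen by a measured value, their lower intensity in Dex than in Veh mice. Their differences are therefore a description, without a test, in every comparison, and the Dex and Veh groups are compared without a p for the other members too.

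The samples were livers of 27 mice, 1 mouse per Affymetrix array, in 3 groups of 9 labelled Con, Veh and Dex. What these names stand for is not stated, and the labels give no genotype, strain, sex, age, dose or time. All groups shared the same RNA extraction with Trizol and RNeasy kits and the same kind of target preparation. Values are the deposited intensities in arbitrary units, or their log2, and differences are in log2 of the first named group minus the second.

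Plasma carriers keep poorly soluble hormones, vitamins and metals in solution and set how much of each is free to enter cells. Most are made by hepatocytes under liver transcription factors such as HNF1, HNF4 and C/EBP, and several behave as acute phase proteins that rise or fall in inflammation. Corticosteroid-binding globulin, the product of Serpina6, is the main carrier of glucocorticoids in blood. Angiotensinogen, the product of Agt, is the precursor cut by renin at the start of the angiotensin pathway, and its gene is a known glucocorticoid target in liver.

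Promoters of 6 of the 10 genes were in the RefSeq-derived table for GRCm38.p6, and none was listed for Rarres2, Serpina6, Ttr or Trf. Shown are 3 of them (250 bases before and 50 after the start, coding strand): Afm and Alb because they are close relatives that lie near each other on 1 chromosome with only the fetal albumin gene Afp between them and had differences of opposite sign in Dex mice, and Agt because it had the clearest difference from Con. Capitals mark matches, on either strand, to any of 5 short motifs: TATAA (the TATA box), CCAAT (the CCAAT box), GTTAAT (a half-site of HNF1), TTGCNNAA (a C/EBP-like site) and TGTTCT (a half-site of the glucocorticoid receptor). The Afm promoter lies at chr5:90518699-90518998 on the plus strand, that of Alb at chr5:90460620-90460919 on the plus strand, and that of Agt at chr8:124569657-124569956 on the minus strand.
Afm: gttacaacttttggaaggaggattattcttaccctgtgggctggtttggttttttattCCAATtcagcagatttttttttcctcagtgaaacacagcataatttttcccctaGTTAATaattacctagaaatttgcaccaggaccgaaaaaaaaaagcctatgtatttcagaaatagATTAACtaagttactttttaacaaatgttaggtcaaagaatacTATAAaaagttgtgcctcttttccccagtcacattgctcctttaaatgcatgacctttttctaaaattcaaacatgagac
Alb: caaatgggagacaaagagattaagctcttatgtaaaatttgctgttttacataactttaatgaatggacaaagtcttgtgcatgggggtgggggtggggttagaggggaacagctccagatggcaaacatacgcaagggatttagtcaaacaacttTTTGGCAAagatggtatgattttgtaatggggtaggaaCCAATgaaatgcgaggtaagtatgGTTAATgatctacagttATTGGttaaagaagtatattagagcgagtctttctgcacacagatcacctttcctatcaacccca
Agt: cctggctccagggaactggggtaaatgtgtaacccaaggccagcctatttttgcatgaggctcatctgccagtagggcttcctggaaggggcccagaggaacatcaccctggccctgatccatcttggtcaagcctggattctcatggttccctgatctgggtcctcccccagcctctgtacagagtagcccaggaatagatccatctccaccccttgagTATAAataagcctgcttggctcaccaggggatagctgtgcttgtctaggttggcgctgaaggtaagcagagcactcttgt

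GTTAAT was found at positions -138 and -73 from the start in Afm, at -32 in Alb and at -52 in Gc. It was present in 7.1% of all 32851 promoters of the table. TATAA began at -30 in both Afm and Agt and was present in 24.9% of all promoters. Alb had CCAAT at -56 and, on the opposite strand, at -15 (present in 37.4% of all promoters), and a TTGCNNAA match at -94 (10.8%). TGTTCT was matched at -55 in Ahsg, on the opposite strand, and in none of the windows of the other 5 genes. It was present in 19% of all promoters. No marked match overlapped another in the sequences shown. These are letter matches in a short window, and nothing about binding follows from their presence or absence.

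The array values had a like scale in all mice (2% trimmed means from 100.1 to 100.2). Over the 6784 tested probe sets the median difference from Con was -0.19 in Veh and -0.20 in Dex, while over the 708 of them with a mean log2 intensity at least that of Afm (9.07) it was 0.21 in both. With quantile normalization these medians were -0.02 and -0.04 over all tested probe sets and 0.03 and -0.0024 over the bright ones. Every measured gene of the list is bright, and a rise of 0.21 against Con was the median of bright probe sets. The summed intensity of 7 hepatocyte markers, taken without Alb, had a median of 40326 in Con (34172 to 58874), 48092 in Veh (36462 to 63264) and 60084 in Dex (39622 to 94540). The brightest of them dominate that sum. It includes Tat, a glucocorticoid target, with medians of 2949, 2894 and 4372 in Con, Veh and Dex. Apoa1 (14528, 19173 and 24968) and Cps1 (6009.5, 6732 and 12501) were brighter than Tat. Of the 8 markers with Alb, 5 had a higher median in Veh than in Con and 6 in Dex, while the medians in Con, Veh and Dex were 1957, 1878 and 1716 for Apob and 865.5, 348.3 and 566.5 for Pck1. The 5 endothelial markers on the array summed to medians of 635.6, 959.9 and 789.1 in the same order, most of it Eng (505.2, 852.5 and 636.1). Other lists had lower medians than in Con. The 11 Kupffer cell and macrophage markers summed to 1300.7, 1232.7 and 1077.7, and the 6 stellate cell markers to 246.8, 191 and 195.3. The groups overlapped in both. A lower share of a cell type and less RNA per cell cannot be told apart in whole liver. The 3' to 5' log2 ratio of beta-actin, a measure of RNA integrity, was higher in Veh (1.27 ± 0.318) than in Con (0.947 ± 0.243) and Dex (0.886 ± 0.169), as mean ± SD over 9 mice each. The Gapdh ratio had the same order, 0.50 ± 0.251 in Veh, 0.354 ± 0.116 in Con and 0.237 ± 0.157 in Dex. The part of these ratios in the differences was tested only by adding each to the fit, and that of the cell type markers was not tested.

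**Figure D1:**
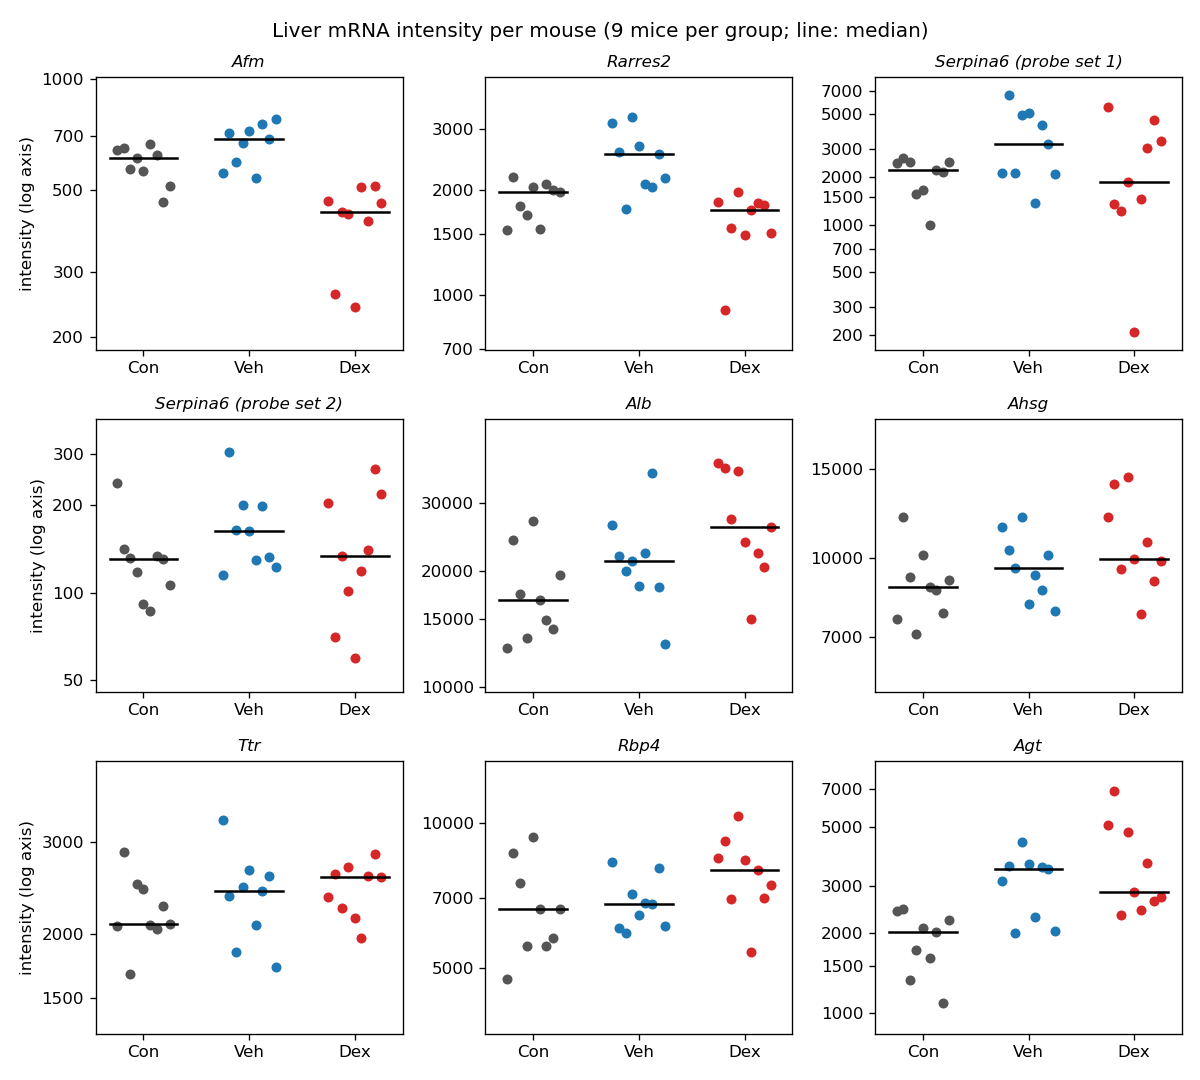
Deposited intensity (log axis, arbitrary units) of each probe set in each of 27 mice, with the median of each group of 9 as a line. The 9 Dex points of Afm all lie below the 9 Veh points, while the Dex points of Serpina6 run from 210.7 to 5561 with the first probe set.

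Of the 8 measured members, Afm, Rarres2 and Serpina6 had lower mean log2 intensities in Dex than in Veh and in Con, and Serpina6 (its brighter probe set), with a wide spread, is described separately. Afamin, the product of Afm, is an albumin relative that binds vitamin E. Its intensity was 463.5 to 664.1 in Con (median 610.4), 538.9 to 777.5 in Veh (median 686.4) and 240.1 to 512.2 in Dex (median 435.7). The Dex and Veh mice did not overlap. All 9 Dex mice lay below the Con median as well, although the highest Dex mice overlapped the lowest Con mice. The difference was -0.72 ± 0.14 against Veh (SE, 9 mice per group), -0.54 ± 0.14 against Con, and 0.18 ± 0.14 for Veh against Con. Taken back from log2, the Dex level was 0.606 times that of Veh, a ratio of geometric means. The 2 lowest mice, Dex 5 (240.1) and Dex 2 (261), stood below the other Dex mice, which began at 412.4.

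Rarres2 encodes chemerin, a chemoattractant and adipokine precursor made in liver and fat that acts through the receptor Cmklr1. Its intensity was 1536 to 2182 in Con (median 1974), 1773 to 3256 in Veh (median 2544) and 907 to 1979 in Dex (median 1753). Each of the 9 Dex values was under the Veh median, and 5 of them were under every Veh mouse. The groups overlapped through the lowest Veh mouse, Veh 3 at 1773, since the next Veh mouse was at 2045. The difference was -0.60 ± 0.14 for Dex against Veh. Against Con it was -0.22 ± 0.14 in Dex and 0.38 ± 0.14 in Veh, and with quantile normalization -0.44 and 0.18, so how far each group lay from Con depended on the scaling. Dex 2 was the lowest mouse at 907, with the next at 1492.

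In the fit over all probe sets Afm and Rarres2 were the 2 of 8 measured members called in Dex vs Veh, where 0.265% of all tested probe sets were called, and Afm was 1 of the 2 tested probe sets (0.0295%) whose groups did not overlap. Because this contrast chose both genes, nothing is read from these counts. Rarres2 and several other plasma proteins are also made in fat. The adipocyte markers on the array were 4 of 6, and only Lep passed the brightness filter. The median intensity of Adipoq in the Con, Veh and Dex mice was 17.7, 15 and 22.1 and that of Fabp4 was 17.8, 12.7 and 19.8, and neither exceeded the array median often enough to be tested. The summed adipocyte level had a median of 196.3 in Con (144.4 to 416.5), 229.4 in Veh (151.3 to 331.8) and 281.9 in Dex (119.9 to 423), and the groups overlapped. Most of that sum was Lep alone, with medians of 156.1, 196.3 and 238.8 in the same order.

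**Figure D2:**
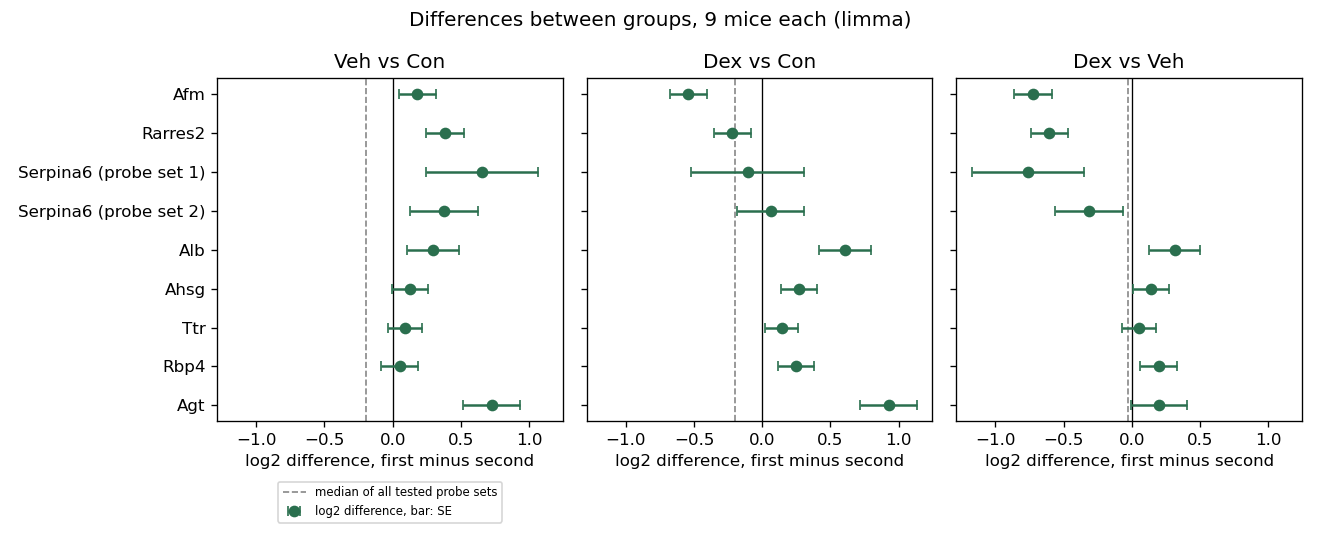
Log2 difference (points) with its standard error (bars) for each probe set in the 3 comparisons of 9 against 9 mice, and the median of all 6784 tested probe sets as a dashed line. Afm and Rarres2 lie left of 0 in Dex vs Veh at -0.72 and -0.60, and Agt lies farthest right against Con at 0.72 in Veh and 0.93 in Dex.

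Agt was the member that differed most from Con in both other groups. Its intensity was 1085 to 2469 in Con (median 2023), 1995 to 4406 in Veh (median 3492) and 2337 to 6840 in Dex (median 2849). In Dex all 9 mice lay above the Con median, and in Veh 8 of 9 did. The lowest mice of both groups still overlapped the highest Con mice. In Dex the 3 mice with the highest Agt were Dex 2 (6840), Dex 1 (5103) and Dex 4 (4821). Agt rose by 0.93 ± 0.21 in Dex vs Con (SE, 9 mice per group, limma adjusted p = 0.00418), a ratio of 1.90, and by 0.72 ± 0.21 in Veh vs Con (limma adjusted p = 0.0424), a ratio of 1.65. Relative to the median of all tested probe sets (-0.20 and -0.19) the rises were 1.13 and 0.92. Bright probe sets, of which Agt is 1, had a median of 0.21 in both groups, so this adjustment enlarges the rises. For Agt, Dex minus Veh was 0.20 ± 0.21.

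The Dex vs Con rise of Agt was called in 27 of 27 sets that left out 1 array (limma adjusted p 0.00244 to 0.0112) and in all 11 other settings tried, in which the difference ranged from 0.62 to 0.97. The Veh vs Con rise was less firm. It was lost with quantile normalization (0.52, limma adjusted p = 0.0944), without the brightness filter (0.0733), with the Gapdh ratio (0.107) or the beta-actin ratio (0.175) in the fit, and in 13 of the 27 sets that left out 1 array. These were the sets without Con 1 (0.0526), Con 3 (0.0849), Con 4 (0.0662), Con 6 (0.0695), Con 7 (0.0616), Con 8 (0.0871), Con 9 (0.0525), Veh 1 (0.0647), Veh 2 (0.0881), Veh 4 (0.0834), Veh 5 (0.0914), Veh 7 (0.0689) or Veh 8 (0.0694), with the limma adjusted p of each in parentheses.

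**Figure D3:**
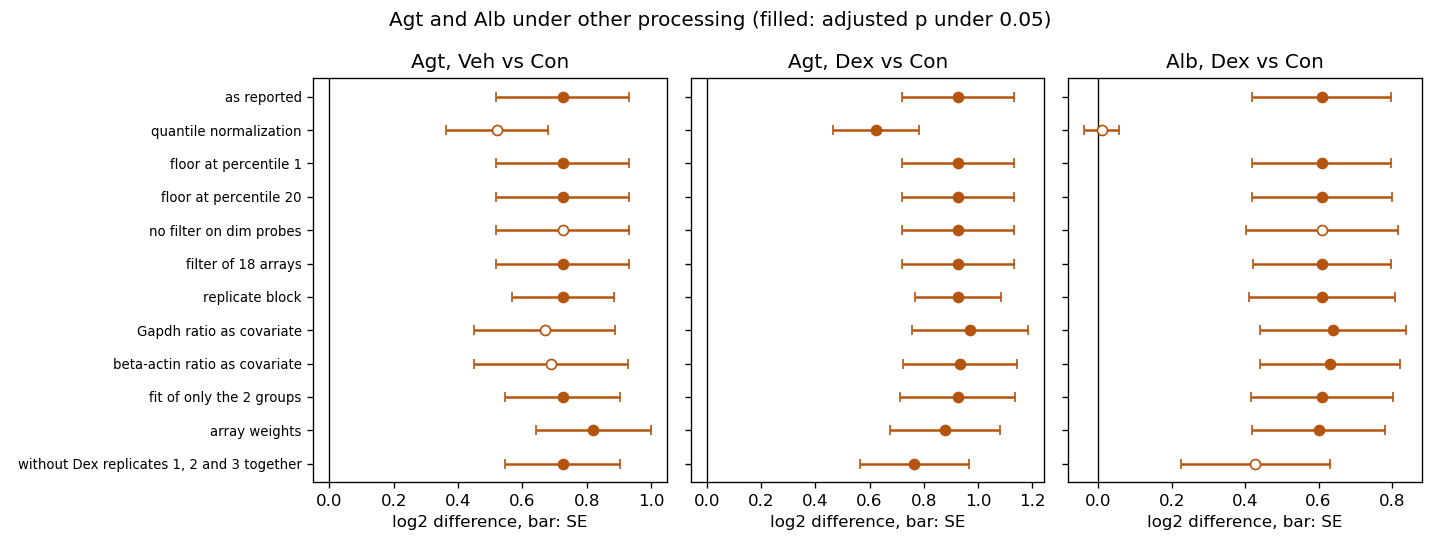
Log2 difference with its standard error for Agt (Veh vs Con, Dex vs Con) and Alb (Dex vs Con), as reported and under 11 other settings, with filled points where the limma adjusted p was under 0.05. Agt in Dex vs Con keeps filled points throughout, and Alb falls to 0.01 with quantile normalization.

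Albumin, the most abundant plasma protein and the carrier of fatty acids, bilirubin and many drugs, had an intensity of 12637 to 26962 in Con (median 16814), 12915 to 35989 in Veh (median 21262) and 14991 to 38074 in Dex (median 26026). The 3 groups overlapped widely. The highest Dex mice were Dex 1 (38074), Dex 2 (36896) and Dex 4 (36400), and 8 of 9 Dex mice lay above the Con median. Alb rose by 0.61 ± 0.19 in Dex vs Con (limma adjusted p = 0.0276). In Veh vs Con the difference was 0.30 ± 0.19 (limma adjusted p = 0.347), and Dex minus Veh was 0.31 ± 0.19.

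The Alb value sits at the top of the array's range, which limits what can be read from its size. Alb was the brightest of all probe sets on 3 of 9 Con, 4 of 9 Veh and 6 of 9 Dex arrays. With quantile normalization the Dex vs Con difference was 0.01 ± 0.05 (limma adjusted p = 0.922). That method gives each probe set a value set by its rank on the array. Alb ranked between 1 and 4 on all 27 arrays, so its log2 values after it ran only from 14.2 to 14.4, beside 13.6 to 15.2 as deposited. The call was also lost without the brightness filter (0.0710), without Dex 1, Dex 2 and Dex 3 together (0.43, limma adjusted p = 0.190), and in 7 of 27 sets that left out 1 array: without Con 1 (0.0575), Con 4 (0.0540), Con 7 (0.0512), Con 8 (0.0505), Dex 1 (0.0602), Dex 2 (0.0590) or Dex 4 (0.0572). Whether such bright probe sets were near saturation was not tested.

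Ahsg, Ttr and Rbp4 had small differences from Con, and none was called. Fetuin-A, the product of Ahsg, binds calcium phosphate in plasma. Its intensity was 7094 to 12070 in Con (median 8758), 7852 to 12059 in Veh (median 9550) and 7762 to 14468 in Dex (median 9966). The groups overlapped over most of their range. The difference from Con was 0.13 ± 0.13 in Veh and 0.27 ± 0.13 in Dex (limma adjusted p = 0.563 and 0.153).

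Rbp4 carries retinol out of the liver, and in plasma it travels bound to transthyretin, the product of Ttr, which also carries thyroxine. Rbp4 had an intensity of 4752 to 9367 in Con (median 6626), 5913 to 8316 in Veh (median 6807) and 5414 to 10359 in Dex (median 7983). Its difference from Con was 0.05 ± 0.13 in Veh and 0.25 ± 0.13 in Dex (limma adjusted p = 0.837 and 0.205). Ttr had an intensity of 1668 to 2872 in Con (median 2087), 1722 to 3306 in Veh (median 2418) and 1961 to 2846 in Dex (median 2568). Its difference from Con was 0.09 ± 0.12 in Veh and 0.14 ± 0.12 in Dex (limma adjusted p = 0.669 and 0.436). In Dex, 8 of 9 mice lay above the Con median for each of these 3 genes, and with quantile normalization all 3 differences from Con were negative in both groups (-0.16 to -0.021), so their direction rests on the scaling.

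Of the 6 measured members that were not chosen by their fall in Dex, 6 had positive differences in Veh vs Con, with 1 called (Agt), and 5 in Dex vs Con, with 2 called (Agt and Alb). The background was 3.86% of tested probe sets called for Veh and 16.4% for Dex. Of those calls 30.9% and 19.8% were higher than Con, and 52.9% and 29.3% with quantile normalization. The median difference over the 6 members was 0.21 in Veh and 0.26 in Dex, beside 0.21 in both for all tested probe sets as bright as Afm or brighter. With quantile normalization, of all 8 measured members, 4 were higher than Con in Veh and 2 in Dex. No member had groups without overlap against Con, where 0.413% (Veh) and 0.767% (Dex) of tested probe sets did.

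**Figure D4:**
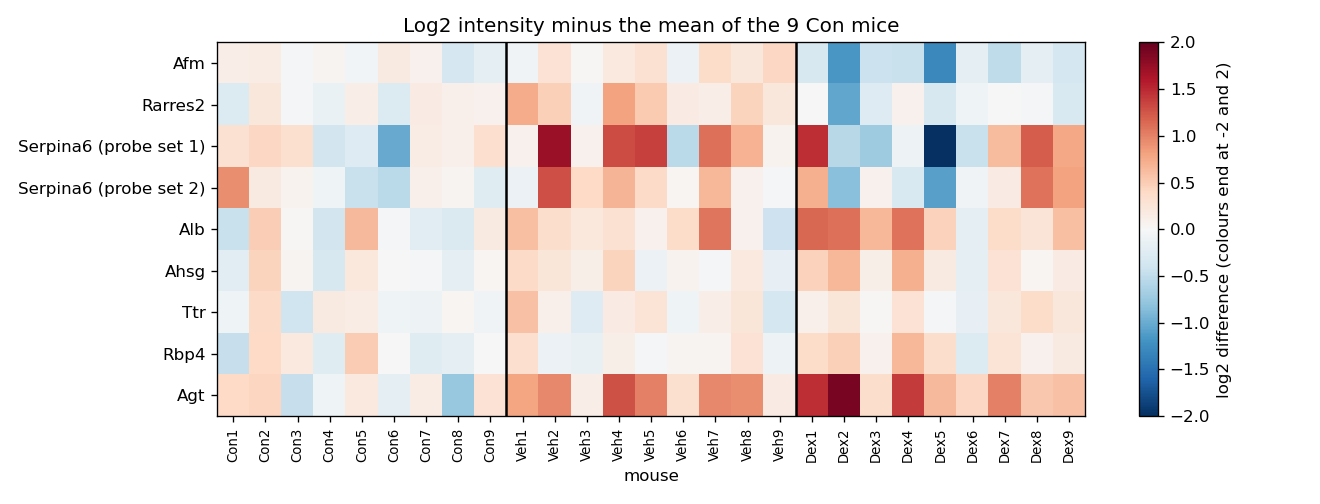
Log2 intensity of each probe set in each mouse minus the mean of the 9 Con mice, with red above and blue below that mean and colours ending at -2 and 2. Afm is blue across all 9 Dex mice, Agt is red in all 9, and Serpina6 changes colour from mouse to mouse.

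Serpina6 differed from the other members in its spread between mice. With the brighter probe set its intensity was 990.1 to 2649 in Con (median 2219), 1368 to 6596 in Veh (median 3220) and 210.7 to 5561 in Dex (median 1851). The Veh and Dex groups each held mice above all 9 Con mice, and Dex 5 lay below every other mouse. The highest mouse exceeded the lowest 2.68-fold in Con, 4.82-fold in Veh and 26.4-fold in Dex. The value for Dex rests on Dex 5, since the next lowest Dex mouse was at 1222. The SD of the log2 values was 0.464, 0.767 and 1.42, beside medians over all tested probe sets of 0.375, 0.469 and 0.566. In Dex, 2.28% of tested probe sets had an SD at least as large, in Veh 19% and in Con 34.8%. With the dimmer probe set the highest mouse exceeded the lowest 2.76-fold in Con, 2.65-fold in Veh and 4.50-fold in Dex. Its SDs were 0.428, 0.448 and 0.733, so with it Veh was about as wide as Con. For Afm the SD was 0.402 in Dex, and 77.1% of tested probe sets varied at least as much.

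The mean of Serpina6 did not separate the groups. The difference was 0.65 ± 0.41 in Veh vs Con (limma adjusted p = 0.337), -0.11 ± 0.41 in Dex vs Con (0.886), and -0.76 ± 0.41 for Dex minus Veh. The dimmer probe set had an intensity of 86.2 to 238 in Con (median 130.1), 115 to 304.6 in Veh (median 163.4) and 59.3 to 266.8 in Dex (median 133.4). Its differences were 0.37 ± 0.25 in Veh vs Con (limma adjusted p = 0.358), 0.06 ± 0.25 in Dex vs Con (0.893) and -0.31 ± 0.25 for Dex minus Veh. The probe sets thus differed in sign in Dex vs Con, with both values near 0, but ranked Dex 5 lowest alike (210.7 and 59.3). Their deviations from the group means had a Pearson r of 0.80 over 27 arrays. Without Dex 5 the brighter probe set gave 0.28 for Dex vs Con and -0.37 for Dex minus Veh.

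With the brighter Serpina6 probe set, the highest mice were also those with high Cyp2b9, a drug-metabolising P450 gene. This overlap was looked for after the values were seen. Serpina6 values in this paragraph are from that probe set unless stated. Serpina6 was at 6596, 4913, 5119 and 4281 in Veh 2, Veh 4, Veh 5 and Veh 7, and at 5561 and 4614 in Dex 1 and Dex 8. Cyp2b9 was at 3288, 1888, 1966 and 1102 in those 4 Veh mice and at 2396 and 1516 in the 2 Dex mice. The 6 mice with the highest Serpina6 were thus the 6 with the highest Cyp2b9, in the same order, and the next mouse was at 3396 for Serpina6 and another at 545 for Cyp2b9. In Con no mouse exceeded 20.2 for Cyp2b9. Cyp7b1, an oxysterol hydroxylase gene, was at 43.2, 49, 56 and 75.6 in the same 4 Veh mice. It was at 68 in Dex 1 but at 305.1 in Dex 8, while Dex 5, lowest in Serpina6, had 1978. Of the 6 mice with the lowest Cyp7b1, 5 were among the 6 with the highest Serpina6. The dimmer Serpina6 probe set ranked the mice otherwise. Veh 2 (304.6) and Dex 8 (266.8) were highest with it. Con 1 (238) and Dex 9 (218.8) came next, above Dex 1 (204.3), Veh 4 (200.1), Veh 7 (198.7) and Veh 5 (163.4). Cyp2b9 was at 3.6 in Con 1 and at 212 in Dex 9. Neither the relation with Cyp2b9 nor that with Cyp7b1 was tested, and the labels give no sex.

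**Figure D5:**
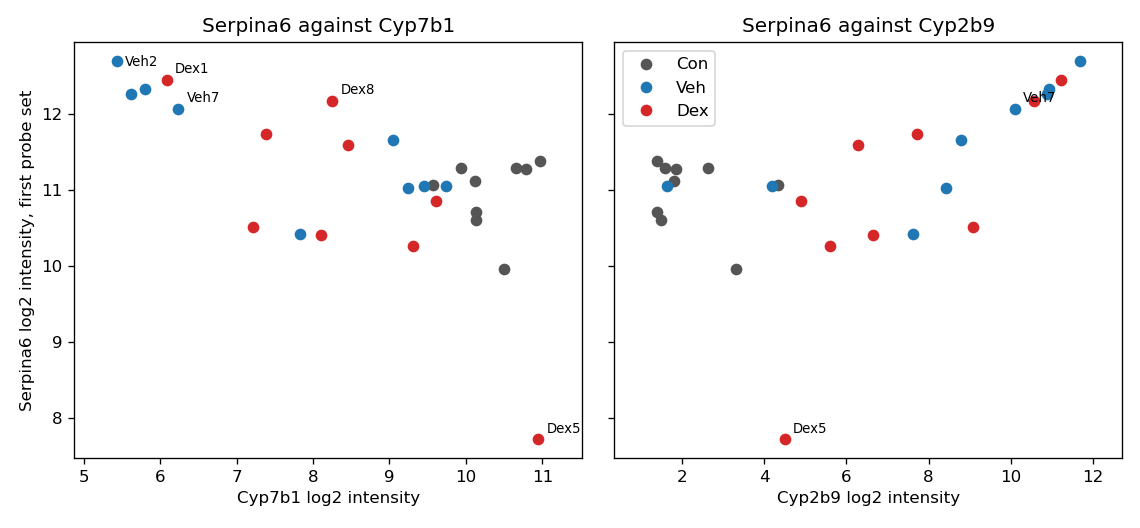
Log2 intensity of Serpina6 (first probe set) against that of Cyp7b1 (left) and Cyp2b9 (right), 1 point per mouse, coloured by group. The 6 mice highest in Serpina6 are also the 6 highest in Cyp2b9, and Dex 5 lies alone at the bottom.

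The members did not follow the known glucocorticoid targets from mouse to mouse in a single way. Tat, a classical glucocorticoid target of amino acid breakdown, was at 15752, 15298 and 11600 in Dex 1, Dex 2 and Dex 3, and at 2979 to 5645 in the other 6 Dex mice. In Dex 1, Dex 2 and Dex 3 Afm was at 467.4, 261 and 435.7, Rarres2 at 1858, 907 and 1555, Serpina6 at 5561, 1352 and 1222, and Agt at 5103, 6840 and 2337. Dex 2 alone of the 3 was low in Afm and Rarres2 and high in Agt. Dex 5, with Tat at 3590, had the lowest Afm and Serpina6. Without Dex 1, Dex 2 and Dex 3 the difference of Afm was -0.68 in Dex vs Veh and -0.49 in Dex vs Con, and that of Rarres2 was -0.50 and -0.11. Over the group, Tat rose by 1.18 ± 0.28 in Dex vs Con (limma adjusted p = 0.00705), while Mt1 (2.74 ± 1.16, adjusted p = 0.1002) and Fkbp5 (1.43 ± 0.65, adjusted p = 0.126) did not pass the limma test. Within Dex, both were highest in Dex 1, Dex 2 and Dex 3, as Tat was. Fkbp5 was at 2951, 2211 and 1914 in these mice and at 58.7 to 161.8 in the other 6. Mt1 was at 11577, 22077 and 7583, and at 208 to 4933 in the other 6.

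Some of the measured members varied together. After the group means were taken out, the Pearson r over 27 arrays was 0.81 for Ahsg with Rbp4, 0.74 for Alb with Rbp4 and 0.73 for Alb with Ahsg. The r of Agt was 0.65 with Ahsg and 0.55 with Alb. The r of Afm was 0.62 with Serpina6, which was 0.37 without Dex 5, and -0.22 with its relative Alb. Of the 28 pairs 23 were above 0, and the lowest was Afm with Rbp4 at -0.31. The arrays share their scaling and RNA quality, and the very bright probe sets share the top of the range, so these values describe the arrays only. Among the other genes, those most like Serpina6 were Mbl2, a mannose-binding lectin of plasma (0.80), Hadh (0.70) and Vamp8 (0.70). Those most like Afm were BC005537 (0.76), Drap1 (0.75) and Nnt (0.73), and those most like Rarres2 were Cuta (0.75), Ces2g (0.72) and Bckdha (0.70). Without Dex 5, the lowest mouse for both Serpina6 and Mbl2 (229.7), the r with Serpina6 was 0.63 for Mbl2, 0.74 for Hadh and 0.57 for Vamp8 (26 arrays), so Hadh came first, as it did by Spearman's rho over 27 arrays (0.73 beside 0.63 for Mbl2). For Afm, Drap1 and Nnt were at 0.63 and 0.62 without Dex 5. Without Dex 1, Dex 2 and Dex 3 (24 arrays) Ces2g and Bckdha were at 0.57 and 0.50 with Rarres2.

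Of 39 listed genes for other secreted carriers and inhibitors 27 were tested. In Dex vs Con 7 rose and 1 fell, which is 29.6% called beside 16.4% of all tested probe sets, with a median of 0.18. With quantile normalization 3 rose and 5 fell, the median was -0.14 and 4 genes were called under both scalings, so the direction of the list rests on the scaling. In Veh vs Con 2 rose and 1 fell, 11.1% called beside 3.86% of all tested probe sets (median 0.17, and -0.034 with quantile normalization). The median of 0.17 to 0.18 was no higher than the 0.21 of bright probe sets. The lipocalin Lcn2 rose by 5.56 ± 0.97 in Dex vs Con (limma adjusted p = 5.95e-04), from a mean log2 intensity of 4.83 in Con that is near background, and its other probe set gave 0.04. Orm3, an orosomucoid, rose by 2.16 in Dex and by 1.47 in Veh, also from a dim level in Con (4.599). The protease inhibitor Serpina3n (1.07) and the haemoglobin carrier Hp (0.75) rose in Dex. So did the alpha-1-antitrypsin genes Serpina1b (0.54) and Serpina1c (0.50), whose near-identical copies the probe sets may not separate. The other Serpina1c probe set gave 0.38 in Dex vs Con and was not called (limma adjusted p = 0.0995). With quantile normalization Hp (0.36), Serpina1b (0.04), Serpina1c (-0.05) and Pon1 in both groups were no longer called. Pon1, a lipoprotein-bound esterase, rose in both (0.40 in Dex, 0.47 in Veh), and Azgp1, a lipid-mobilising glycoprotein, fell in both (-0.59 and -0.66). In Dex vs Veh the limma test called 0 of the 27, with 10 at an unadjusted p under 0.05, beside 1029 of all 6784 tested probe sets.

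Of 24 listed genes for other liver hormones 14 were tested. In Dex vs Con 1 was called, 7.14% of the 14 beside 16.4% of all tested probe sets. It was Igfbp1, a binding protein that restrains IGF1, which rose by 2.39 ± 0.83 (limma adjusted p = 0.0469) from a dim level of 3.85 in Con. In the other comparisons, Veh vs Con and Dex vs Veh, limma called 0 (3 and 1 at an unadjusted p under 0.05). Of all 6784 tested probe sets, 1598 and 1029 had an unadjusted p under 0.05 in these comparisons. The smallest p in Veh vs Con belonged to the iron hormone gene Hamp (0.43, limma adjusted p = 0.178) and to Igfbp1 (1.74, adjusted p = 0.201).

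Of 43 listed receptors, enzymes and partners of the carriers' ligands 19 were tested, with a median of -0.14 in Dex vs Con and -0.23 in Veh vs Con, beside -0.20 and -0.19 for all tested probe sets. Hsd11b1, which regenerates active glucocorticoid inside cells, rose by 0.52 ± 0.14 in Dex vs Con (limma adjusted p = 0.0140). Hfe, a partner of the transferrin receptors, fell by 0.74 ± 0.16 (adjusted p = 0.00392, limma). The iron regulatory protein gene Ireb2 (-0.89) and the thyroid hormone deiodinase gene Dio1 (-2.37) fell too. Of these 4 calls, 21.1% of the list beside 16.4% of all tested probe sets, only that of Hfe was kept with quantile normalization. For Veh vs Con and for Dex vs Veh limma called 0 of the 19. An unadjusted p under 0.05 was seen for 3 and 5 of them, beside 1598 and 1029 of all 6784 tested probe sets. The smallest p in Veh vs Con belonged to Hfe (-0.43, limma adjusted p = 0.114) and the ferritin gene Fth1 (0.31, adjusted p = 0.131).

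Of 17 listed liver transcription factors, which drive many genes of secreted proteins, 12 were tested. In Veh vs Con 11 of the 12 had negative differences, with a median of -0.68. Of the 12, 3 were called (25%), beside 3.86% of all tested probe sets. Over all tested probe sets 30.1% of differences from Con were positive in Veh mice and 32.6% in Dex mice, so most were negative there too, and the medians were -0.19 and -0.20. The called genes were Hnf4a (-1.16 ± 0.29, limma adjusted p = 0.0281), the pioneer factor gene Foxa1 (-1.29 ± 0.32, adjusted p = 0.0281) and the bile acid receptor gene Nr1h4 (-0.88 ± 0.23, adjusted p = 0.0326). In Dex vs Con 9 were negative and 2 called, Foxa1 (-0.95) and Nr1h4 (-0.82), with a median of -0.53; this is 16.7% called, beside 16.4% of all tested probe sets. With quantile normalization 0 were called in Veh mice and only Nr1h4 in Dex mice, with medians of -0.39 and -0.29. Foxa1 was dim there and in Veh, with a mean log2 intensity of 4.69 in Veh. In Dex vs Veh limma called 0 (1 at an unadjusted p under 0.05, Hnf4a at 1.22, beside 1029 of all 6784 tested probe sets).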

How the data were processed

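Per the labels, liver RNA of 27 mice was hybridised to 27 Affymetrix arrays. The deposited values are 1 linear intensity per probe set and array, which the authors had already brought to a like trimmed mean. The summarisation software and scaling target were not given in the sources used here. Values were floored at 2.6 (the 10th percentile of positive values) before log2. Probe sets above their array's median in at least 9 arrays were kept (6784), without 66 control probes. A limma 3.58.1 model (R 4.3.3) of the 3 group means used every array, eBayes with trend, two-sided tests and Benjamini-Hochberg adjustment across the tested probe sets (threshold 0.05). The code was tested on simulated data. Precision is limited by the number of mice, since arrays carry no depth. Each p-value sets a difference of group means against the spread between mice. With 1 array per mouse, that spread cannot be separated from the spread between arrays. The array annotation gave 1 symbol for 10833 probe sets, several for 396 and none for 1193. The brightest probe set stands for a gene in counts.

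The members, the 4 lists of related genes and the markers were chosen with earlier results of these data known. Genes named were all members, list genes called against Con (otherwise the 2 with the smallest p), the 3 most like Afm, Rarres2 and Serpina6, and Tat, Mt1 and Fkbp5. Cyp2b9 and Cyp7b1 were added after their values were seen. Alternatives were other scaling, floors and filters, RNA ratios as covariates, a replicate block, array weights, 2-group fits and arrays left out.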

Additional observations from a re-analysis of the deposited data

Results flagged for a closer look

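In 3 of 27 checks of a probe set within a group of 9, 1 mouse stood apart from the rest by Dixon's criterion, which chance meets in about 1 of 20 groups. Rarres2 was at a log2 intensity of 9.82 in Dex 2, with the next mouse at 10.5. Serpina6 was at 7.72 in Dex 5 with its brighter probe set, with the next at 10.3. Serpina6 was at 7.89 in Con 1 with its dimmer probe set, with the next at 7.15.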

How the results depend on the processing

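The counts of called members include Afm and Rarres2, which were chosen by their fall in Dex, so nothing about stability is read from those 2 genes. Of the other 6, 1 was called in Veh vs Con (0 to 1 over 11 settings and over the sets without 1 array), 2 in Dex vs Con (1 to 2 in both) and 0 in Dex vs Veh in all of them. Of all 8 measured members, 1 was called in Veh vs Con, 3 in Dex vs Con and 2 in Dex vs Veh. The Veh vs Con count was 0 with quantile normalization, without the brightness filter and with either RNA ratio as a covariate. It was 2, with Rarres2 added, in the fit of only the 2 groups, with array weights and without Dex 1, Dex 2 and Dex 3 together. The Dex vs Veh count was 1 without the filter and with array weights, and 0 with the beta-actin ratio, in the 2-group fit and without those 3 Dex mice. Leaving out 1 array gave 0 to 1 in Veh vs Con, 2 to 3 in Dex vs Con and 1 to 2 in Dex vs Veh. With quantile normalization the sign turned in Veh vs Con for Alb (-0.0079), Ahsg (-0.021), Ttr (-0.12) and Rbp4 (-0.16), and in Dex vs Con for Ahsg (-0.074), Ttr (-0.12) and Rbp4 (-0.11), none of them called. It also turned for Rbp4 in Veh vs Con without Con 1 (-0.0077, highest 0.11) and for Serpina6 in Dex vs Con without Dex 5 (0.28, lowest -0.31). The cause was not tested. In Dex vs Con the count stayed at 3 with quantile normalization, but with Rarres2 in place of Alb. Quantile normalization of the 4 lists and the likeness without Dex 5 were added after seeing the data. With it the called transcription factors numbered 0 for Veh and 1 for Dex against Con, the called partners 1 for Veh (Rdh7), and the called carriers and inhibitors 1 in Dex vs Veh (Pzp). Over all tested probe sets 262, 1115 and 18 were called in Veh vs Con, Dex vs Con and Dex vs Veh, with ranges over the settings of 33 to 1158, 405 to 1160 and 1 to 19, and over the sets without 1 array of 85 to 586, 785 to 1488 and 4 to 124.

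The replicate numbers were not shown to pair the mice: 4 of 27 same-numbered pairs had a correlation of deviations over 0.1 (median 0.0087), and 4 of 27 mice correlated best with their own number. With the replicate block 3 probe sets and 0 members were called in Dex vs Veh, and the member counts against Con were 1 and 3. The limits on precision are 9 arrays per group and values at the top of the range for Alb.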
